A study of Mus musculus with 5 samples.

Results

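Transcripts of 10 genes that mark macrophages, monocytes and the C1q made by macrophages were examined in the injured kidneys of mice with and without tubular PRDM16. The genes were Adgre1, Csf1r, Cd68, Mrc1, C1qa, C1qb, C1qc, Trem2, Gpnmb and Ly6c2, taken by gene name from the deposited count tables. All 10 were found among the 35478 genes listed, and all 10 were among the 16394 genes that passed the filter on low counts. Kidney RNA came from 2 Prdm16fl/fl mice, numbered 1 and 3 in the labels, and 3 Ksp-Cre/Prdm16fl/fl mice, numbered 1, 2 and 3, with 1 library per mouse. The strain label of all 5 mice was C57BL/6J;129, as in the methods, while their titles give C57BL/6J alone. All 5 carried floxed exon 9 of Prdm16 on both alleles, and were male and 7–8 weeks old at surgery according to the methods. All had unilateral ischemia-reperfusion injury (UIRI) of the left kidney, with the pedicle clamped for 35 minutes at 38.5°C. The right kidney was taken out on day 10 and tissue was collected 24 hours later, on day 11. No uninjured kidney was sequenced, so every value describes injured tissue. Ksp-Cre drives Cre recombinase in tubular epithelial cells and is not directed at macrophages, which carry the floxed alleles in both groups. RNA was taken from kidney cortex according to the methods, a tissue where macrophages are 1 cell type among many, and fewer macrophages and less RNA per macrophage cannot be told apart in such a sample.

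Kidney macrophages come from resident cells and from blood monocytes that enter after injury. Their survival depends on the receptor Csf1r, and they take up dead cells and debris through receptors such as Mrc1. C1q, the recognition part of the classical complement pathway, is built from the products of C1qa, C1qb and C1qc, and in most tissues macrophages are its main source. Trem2 is a lipid-binding receptor that signals through the adaptor Tyrobp, and Gpnmb is a membrane glycoprotein linked to lysosomes in cells loaded with lipid or debris. Ly6c2 encodes part of the Ly6C antigen of inflammatory monocytes.

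Total counts lay between 14939040 and 16425161 per library. Prdm16, the targeted gene, had a TMM-scaled count per 1000000 (CPM) of 22.6 ± 3.72 (SD, n = 2) in the Prdm16fl/fl mice and 17.4 ± 0.552 (SD, n = 3) in the Ksp-Cre/Prdm16fl/fl mice, a difference that did not pass the test (log2 fold change -0.38, adjusted p = 0.259 by the quasi-likelihood test of edgeR, as for every adjusted p below). These counts were summed over the gene and do not isolate exon 9 or the tubular cells. Genes of the kidney were abundant in every library, with 10 proximal tubule genes summing to 6523 CPM or more. Ksp-Cre/Prdm16fl/fl mouse 3 stood apart from the rest. Across tested genes its log2 CPM had a Pearson's r of 0.957 and 0.96 with Ksp-Cre/Prdm16fl/fl mice 1 and 2, which had an r of 0.991 with each other. For the 10 genes, values are therefore given with and without this mouse where it changed a result. Values of other genes are over all 5 mice unless stated, and many of them also changed without it.

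Gpnmb was the single gene of the 10 that passed the test, being higher in Ksp-Cre/Prdm16fl/fl UIRI mice (adjusted p = 0.0412). It did not pass when mouse 1 or mouse 2 of the Ksp-Cre/Prdm16fl/fl group was left out. The other 9 genes did not pass the test in the 5 mice, and in each of them the values of the groups overlapped. With so few mice, not passing does not show that a gene was unchanged. To be called, a gene needed an adjusted p under 0.05, by Benjamini-Hochberg over all tested genes, and at least 1 log2 unit of difference. By this rule 1 of 10 genes was called, and higher, beside 0.708% of the 16394 genes tested, or 0.0793% in the higher direction. The log2 fold change was above 0 for 8 of the 10, beside 54.0% of all tested genes, and its median was 0.26, beside 0.04 for all tested genes. The median difference of the 10 genes from the Prdm16fl/fl mean was 0.5 and 0.39 on the log2 scale in mice 1 and 2 of the Ksp-Cre/Prdm16fl/fl group and -0.1 in mouse 3, and the Prdm16fl/fl mice themselves stood at -0.18 and 0.18.

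**Figure D1:**
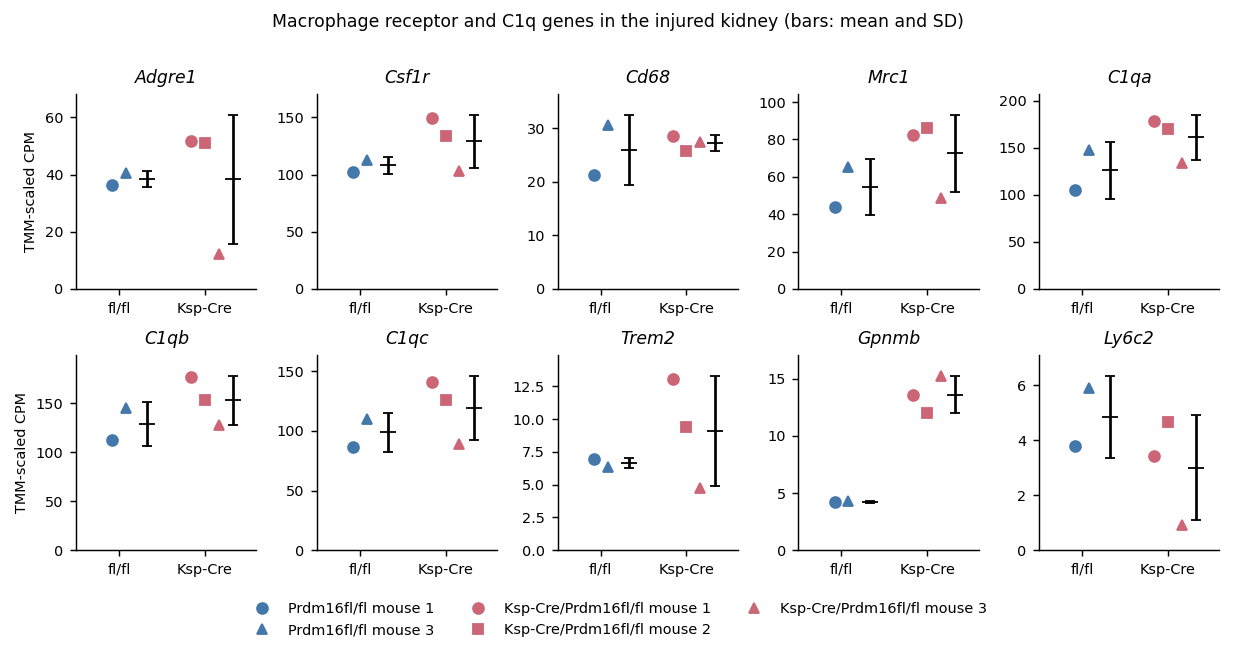
TMM-scaled CPM (y axis, from 0) of each gene by mouse, with Prdm16fl/fl mice in blue, Ksp-Cre/Prdm16fl/fl mice in red and the mean and SD in black. Gpnmb is at 4.18 to 4.31 CPM in the Prdm16fl/fl mice and at 12 to 15.2 CPM in the Ksp-Cre/Prdm16fl/fl mice, and Adgre1 is at 12.3 CPM in Ksp-Cre/Prdm16fl/fl mouse 3 against 51.0 and 51.7 CPM in the other Ksp-Cre/Prdm16fl/fl mice.

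The level per gene length, given as the deposited FPKM, was highest for the C1q chains. In Prdm16fl/fl mice it was 111 ± 16.1 FPKM for C1qb, 111 ± 23.2 FPKM for C1qa and 83.7 ± 11.5 FPKM for C1qc (SD, n = 2). Csf1r followed at 26.5 ± 1.05 FPKM, Cd68 at 19.7 ± 4.39 FPKM, Adgre1 at 11.0 ± 0.492 FPKM and Mrc1 at 9.75 ± 2.38 FPKM. C1qb and C1qa overlapped between mice, as did Adgre1 and Mrc1, whereas C1qc, Csf1r and Cd68 were each apart from their neighbours in the order. Trem2 (5.55 ± 0.501 FPKM) and Ly6c2 (4.96 ± 1.38 FPKM) were lower and overlapped, and Gpnmb was lowest at 1.06 ± 0.0108 FPKM. In Ksp-Cre/Prdm16fl/fl mice the order by mean differed at 3 places, in that C1qa stood before C1qb (154 and 144 FPKM), Mrc1 before Adgre1 (14.2 and 12 FPKM) and Gpnmb before Ly6c2 (3.65 and 3.41 FPKM). In each of these pairs the ranges over the 3 mice overlapped.

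**Figure D2:**
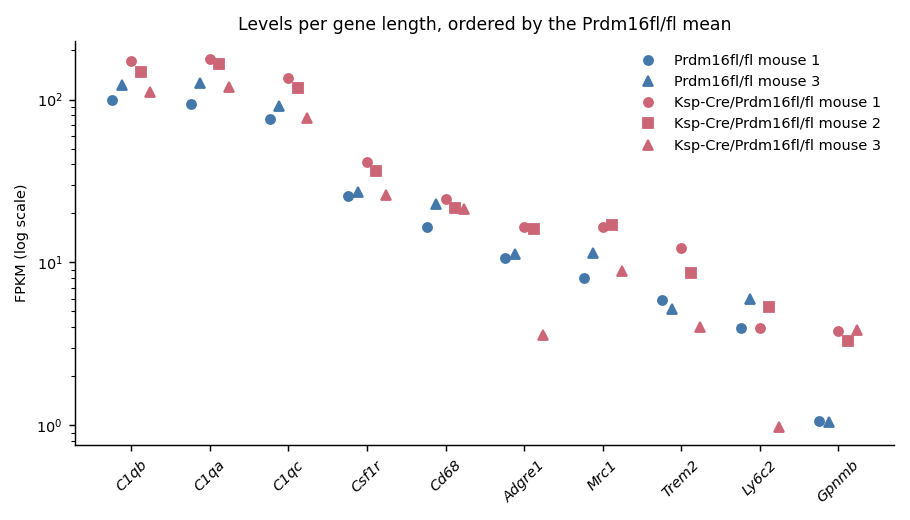
FPKM (y axis, log scale) of each gene by mouse, in the order of the Prdm16fl/fl mean, with Prdm16fl/fl mice in blue and Ksp-Cre/Prdm16fl/fl mice in red. The C1q chains lie between 75.5 and 177 FPKM in every library, and every other gene at 41.1 FPKM or lower.

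Adgre1 encodes F4/80, the surface protein most used to identify mouse macrophages. Its level was 36.5 and 40.6 CPM in mice 1 and 3 of the Prdm16fl/fl group, and 51.7, 51.0 and 12.3 CPM in mice 1, 2 and 3 of the Ksp-Cre/Prdm16fl/fl group. Mice 1 and 2 of the Ksp-Cre/Prdm16fl/fl group lay above both Prdm16fl/fl mice and mouse 3 lay far below them. Over all 5 mice the log2 fold change was -0.0044 (SE 0.56, adjusted p = 0.998), where SE is the standard error, and 0.42 (SE 0.1, adjusted p = 0.0255) without mouse 3. Adgre1 in mouse 3 was 4.14-fold lower than the mean of mice 1 and 2, and 1.82% of the tested genes were lower there by at least as much. The sign over 5 mice depended on scaling, since library size scaling, which also moved the median of all genes from 0.04 to 0.15, gave 0.14 and upper quartile scaling gave 0.021.

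Csf1r, the receptor for the growth factors Csf1 and Il34, was at 102 and 113 CPM in mice 1 and 3 of the Prdm16fl/fl group. It was at 149, 134 and 103 CPM in mice 1, 2 and 3 of the Ksp-Cre/Prdm16fl/fl group. The value of mouse 3 lay inside the Prdm16fl/fl range and the other values above it. Csf1r had a log2 fold change of 0.26 (SE 0.18, adjusted p = 0.483), and 0.4 (SE 0.11, adjusted p = 0.0357) without mouse 3. It was 0.14 with Ksp-Cre/Prdm16fl/fl mouse 1 left out.

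Cd68, a lysosomal glycoprotein of phagocytes, was at 21.2 and 30.5 CPM in the Prdm16fl/fl mice and at 28.6, 25.7 and 27.4 CPM in mice 1, 2 and 3 of the Ksp-Cre/Prdm16fl/fl group. All Ksp-Cre/Prdm16fl/fl values lay between those of the Prdm16fl/fl mice. Its log2 fold change was 0.075 (SE 0.18, adjusted p = 0.856). Without Prdm16fl/fl mouse 1 it turned to -0.17. Mrc1, the mannose receptor CD206, was at 44.0 and 65.2 CPM in the Prdm16fl/fl mice and at 82.5, 86.1 and 48.8 CPM in the Ksp-Cre/Prdm16fl/fl mice. As with Adgre1, mice 1 and 2 were above both Prdm16fl/fl mice, but mouse 3 stayed within their range. Mrc1 had a log2 fold change of 0.41 (SE 0.29, adjusted p = 0.495), and 0.63 (SE 0.16, adjusted p = 0.0295) without mouse 3. It was 0.15 without Prdm16fl/fl mouse 1, 0.72 without Prdm16fl/fl mouse 3 and 0.27 without Ksp-Cre/Prdm16fl/fl mouse 2.

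The C1q genes lie next to each other on the minus strand of chromosome 4. In the coordinates of the deposited files, whose mouse genome build is not given in the sources used here, C1qb runs from 136607437 to 136613511, C1qc from 136617112 to 136620242 and C1qa from 136623227 to 136626155. The 250 bases before the start of C1qb and C1qc are shown because these neighbouring genes kept nearly the same proportions in every library, and those of Gpnmb because it was the gene called. The sequences are from RefSeq on GRCm38.p6, in which 7 of the 10 genes matched an entry and C1qa did not. Capitals mark GAGGAA, the core of the site bound by the macrophage factor PU.1, or its reverse complement TTCCTC, and CATGTG or CACGTG, the E-box of the MITF family, or the reverse complement CACATG of the first.
C1qb, chr4:136886201-136886450, minus strand: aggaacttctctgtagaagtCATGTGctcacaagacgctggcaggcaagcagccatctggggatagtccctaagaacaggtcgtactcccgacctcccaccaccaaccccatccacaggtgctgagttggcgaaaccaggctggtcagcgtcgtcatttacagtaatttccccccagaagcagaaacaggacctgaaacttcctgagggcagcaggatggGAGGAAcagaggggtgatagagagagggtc
C1qc, chr4:136892915-136893164, minus strand: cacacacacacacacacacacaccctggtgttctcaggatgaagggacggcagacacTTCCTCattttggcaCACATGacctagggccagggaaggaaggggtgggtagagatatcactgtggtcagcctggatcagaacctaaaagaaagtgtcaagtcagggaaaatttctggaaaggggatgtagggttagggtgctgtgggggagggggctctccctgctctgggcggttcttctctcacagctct
Gpnmb, chr6:49036268-49036517, plus strand: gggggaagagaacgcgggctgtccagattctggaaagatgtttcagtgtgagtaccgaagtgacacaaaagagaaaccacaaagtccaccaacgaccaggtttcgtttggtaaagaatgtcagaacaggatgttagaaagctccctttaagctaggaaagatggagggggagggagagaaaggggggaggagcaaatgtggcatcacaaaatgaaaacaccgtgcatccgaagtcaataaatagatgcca

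Counted from the gene start, with -1 as the base just before it, GAGGAA begins at -30 in C1qb and its reverse complement at -193 in C1qc, and the E-box letters begin at -230 in C1qb and at -178 in C1qc. None of these matches overlap each other. Neither motif is in the Gpnmb window. The windows of Cd68, Mrc1, Trem2 and Ly6c2, not printed, hold GAGGAA or its reverse complement, and of these only that of Mrc1 holds an E-box. Among 32851 promoter windows of the same length, 23.3% hold GAGGAA and 17.6% hold an E-box on either strand, so matches of this kind are common, and they describe letters only.

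C1qa, which encodes the A chain, was at 105 and 148 CPM in mice 1 and 3 of the Prdm16fl/fl group, and at 179, 170 and 134 CPM in mice 1, 2 and 3 of the Ksp-Cre/Prdm16fl/fl group. C1qb, for the B chain, was at 113 and 145 CPM against 177, 154 and 128 CPM. C1qc, for the C chain, was at 86.9 and 110 CPM against 141, 126 and 89.0 CPM. For each chain, Ksp-Cre/Prdm16fl/fl mice 1 and 2 were above both Prdm16fl/fl mice and mouse 3 was between them. The log2 fold change was 0.35 for C1qa (SE 0.2, adjusted p = 0.407), 0.24 for C1qb (SE 0.19, adjusted p = 0.523) and 0.27 for C1qc (SE 0.22, adjusted p = 0.559). All 3 were above 0 under every alternative run, with a lowest value of 0.073 for C1qb without Prdm16fl/fl mouse 1. In that fit C1qa was at 0.12 and C1qc at 0.1, whereas without Prdm16fl/fl mouse 3 the values were 0.62 for C1qa, 0.44 for C1qb and 0.45 for C1qc. Without Ksp-Cre/Prdm16fl/fl mouse 1 C1qb and C1qc were both at 0.13. Removing each library's trend on gene length gave larger values, 0.6 for C1qa, 0.48 for C1qb and 0.5 for C1qc, and no call. Without Ksp-Cre/Prdm16fl/fl mouse 3 the adjusted p was 0.0627 for C1qa, 0.101 for C1qb and 0.0485 for C1qc.

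The chains kept similar proportions in every library. C1qa made up 35.0 to 38.8% of the summed FPKM of the 3 chains, C1qb 34.1 to 37.0% and C1qc 24.9 to 28.0%. The lowest share of C1qc was that of Ksp-Cre/Prdm16fl/fl mouse 3. The summed level of the 3 chains was 305 and 403 CPM in the Prdm16fl/fl mice and 497, 451 and 350 CPM in the Ksp-Cre/Prdm16fl/fl mice.

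Trem2 was at 6.94 and 6.39 CPM in mice 1 and 3 of the Prdm16fl/fl group, and at 13.1, 9.39 and 4.73 CPM in mice 1, 2 and 3 of the Ksp-Cre/Prdm16fl/fl group. Mouse 3 had the lowest value of all libraries and mouse 1 the highest. Its log2 fold change was 0.45 (SE 0.42, adjusted p = 0.605), and 0.76 (SE 0.21, adjusted p = 0.0372) without mouse 3. With Ksp-Cre/Prdm16fl/fl mouse 1 left out it was 0.087.

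Gpnmb behaved otherwise. It had 62 and 60 counts in mice 1 and 3 of the Prdm16fl/fl group, which is 4.18 and 4.31 CPM, and 239, 203 and 228 counts in mice 1, 2 and 3 of the Ksp-Cre/Prdm16fl/fl group, which is 13.6, 12 and 15.2 CPM. The groups did not overlap, and mouse 3, lowest for Trem2, was highest for Gpnmb. Such a separation was seen in the higher direction for 20.3% of all tested genes and in either direction for 41.6%. Gpnmb rose 3.2-fold, with means of 4.24 ± 0.0887 CPM (SD, n = 2) and 13.6 ± 1.6 CPM (SD, n = 3) and a log2 fold change of 1.68 (SE 0.2, adjusted p = 0.0412). With each mouse left out the log2 fold change lay between 1.59 and 1.76. The call was close to the threshold and was lost without Prdm16fl/fl mouse 1 (adjusted p = 0.261) or mouse 3 (0.496) and likewise when mouse 1 (0.129) or mouse 2 (0.136) of the Ksp-Cre/Prdm16fl/fl group was left out, fits in which 0 of all tested genes were called, and after the trends on gene length and GC content were removed (0.0502).

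Markers of other cells were read beside Gpnmb. Melanocytes also make Gpnmb, and their defining genes Tyr and Tyrp1 had 0 counts in all 5 libraries, where a count of 0 allows up to 3 counts per library, while Mlana and Dct had at most 2 counts in any library. The 6 melanocyte genes, mostly through Mitf, summed to 28.1 and 29.4 CPM in the Prdm16fl/fl mice and to 15.8 to 26.5 CPM in the Ksp-Cre/Prdm16fl/fl mice. Pmel, another gene of the list, had 15 and 22 counts in mice 1 and 3 of the Prdm16fl/fl group and 16, 22 and 31 counts in mice 1, 2 and 3 of the Ksp-Cre/Prdm16fl/fl group, with mouse 3 highest as for Gpnmb (log2 fold change 0.13, adjusted p = 0.905). Osteoclast genes, which macrophages also make in part, differed in direction. Ctsk, a cathepsin, was higher without overlap, at 8.29 and 11.6 CPM against 19.9, 19.1 and 17.5 CPM (0.93, adjusted p = 0.0812), and Acp5, an acid phosphatase, was lower without overlap, at 63.6 and 83.4 CPM against 41.7, 51.6 and 47.6 CPM (-0.65, adjusted p = 0.115). Calcr, the calcitonin receptor, was at 0.35 (adjusted p = 0.531). Acp5 made up most of the sum of the 4 osteoclast genes, which was 76.0 and 98.1 CPM against 66.5 to 75.6 CPM. Of 8 tubular injury genes 0 were called, but 7 were higher at an unadjusted p under 0.05 in edgeR, beside 7.64% of all tested genes. Their median log2 fold change was 1.18, beside 0.04 for all tested genes. The sum of the 8, mostly of Spp1, was 14964 and 15526 CPM in the Prdm16fl/fl mice and 32048 to 38170 CPM in the Ksp-Cre/Prdm16fl/fl mice. The 10 proximal tubule genes, of which 2 were called lower, beside 0.628% of all tested genes, summed to 22582 and 27595 CPM against 6523 to 9844 CPM. The 5 erythroid genes, of which 0 were called, summed to 6.67 and 10.8 CPM against 40.5 to 151 CPM. The part of these other cells in the Gpnmb difference was not tested.

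Ly6c2 had few counts, with 56 and 82 counts in mice 1 and 3 of the Prdm16fl/fl group and 60, 79 and 14 counts in mice 1, 2 and 3 of the Ksp-Cre/Prdm16fl/fl group. In CPM it was 3.78 and 5.88 against 3.41, 4.67 and 0.933. The groups overlapped through Ksp-Cre/Prdm16fl/fl mouse 2, and mouse 3 was 4-fold lower than the mean of mice 1 and 2, as 1.99% of the tested genes were by at least as much. Its log2 fold change was -0.68 (SE 0.61, adjusted p = 0.59), and -0.25 (SE 0.28, adjusted p = 0.567) without mouse 3. It was -0.33 without Prdm16fl/fl mouse 3 and -1.14 without Ksp-Cre/Prdm16fl/fl mouse 2. Its near copy Ly6c1, which endothelial cells make, was highest in mouse 3, at 103 CPM against 54.6 to 63.3 CPM in the other libraries. Reads could have been split between these paralogs by the counting, so both values are uncertain.

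**Figure D3:**
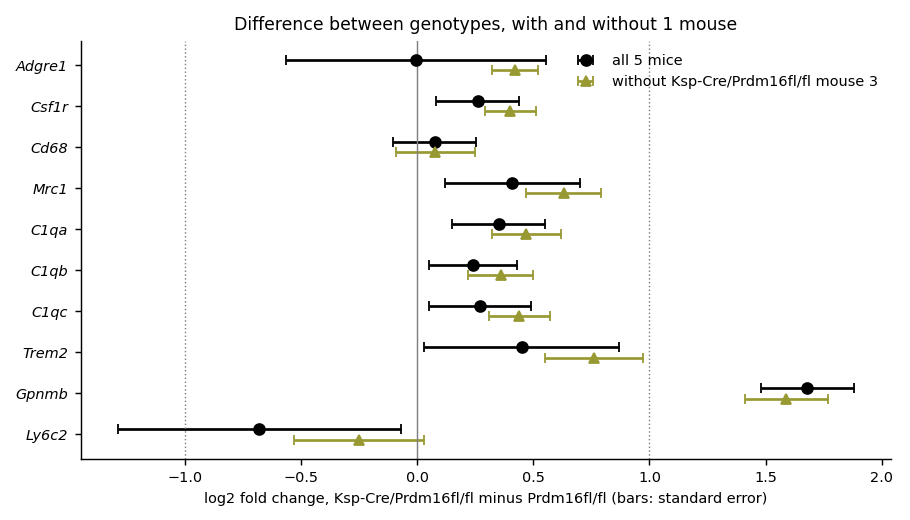
Log2 fold change (x axis) of each gene with its standard error, over all 5 mice (black) and without Ksp-Cre/Prdm16fl/fl mouse 3 (olive), with dotted lines at the threshold of 1 in size. Gpnmb lies at 1.68 and 1.59, and Adgre1 moves from -0.0044 to 0.42.

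Among all alternatives, the one without Ksp-Cre/Prdm16fl/fl mouse 3 had the most of these genes past an adjusted p of 0.05. In that fit 6 of the 10 passed it, all of them higher, namely Adgre1, Csf1r, Mrc1, C1qc, Trem2 and Gpnmb, and Gpnmb alone was past both thresholds, as were 4.53% of all genes tested there. Beside them, 7.82% of the 16196 genes tested in that fit were higher at the same adjusted p. The median of the 10 genes was 0.43 there, and that of all tested genes 0.02. Leaving out other mice moved the median of the 10 down, to 0.11 without Prdm16fl/fl mouse 1 and to 0.13 when mouse 1 of the Ksp-Cre/Prdm16fl/fl group was left out, or up, to 0.41 without Prdm16fl/fl mouse 3. Mouse 3 was the lowest library for 3 of the 10 genes (Adgre1, Trem2 and Ly6c2), a share near the 32.0% of all tested genes for which it was lowest. Genes of leukocytes in general had the same library order in part. A list of 8, with 0 called and a median log2 fold change of 0.19, summed to 372 and 384 CPM in the Prdm16fl/fl mice and to 471, 472 and 308 CPM in mice 1, 2 and 3 of the Ksp-Cre/Prdm16fl/fl group. The part of leukocyte number in these differences was not tested.

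Whether the genes moved apart from each other was examined by ratios of counts within a library, which do not depend on scaling between libraries. Relative to Adgre1, the log2 ratio of C1qa was 1.52 and 1.86 in mice 1 and 3 of the Prdm16fl/fl group, 1.79 and 1.74 in mice 1 and 2 of the Ksp-Cre/Prdm16fl/fl group, and 3.44 in mouse 3. The ratio of Csf1r to Adgre1 was 1.49 and 1.47, then 1.52 and 1.39, and 3.06 in mouse 3. Mouse 3 thus had far less Adgre1 for its C1q and Csf1r than the other 4 libraries, which differed little from each other. For Gpnmb the ratio to Adgre1 was -3.12 and -3.23 in the Prdm16fl/fl mice and -1.93, -2.09 and 0.3 in the Ksp-Cre/Prdm16fl/fl mice. The ratio of Ly6c2 to Adgre1 was -3.26 and -2.78 against -3.91, -3.44 and -3.68. Of 9 ratios to Adgre1, those of Gpnmb (higher) and Ly6c2 (lower) did not overlap between the groups, beside 8.63% of all tested genes. The exact two-sided permutation p was 0.2 for Gpnmb and 0.1 for Ly6c2, where 0.1 is the smallest that the 10 splits of 5 libraries allow, and after Benjamini-Hochberg adjustment over the 9 ratios every permutation p was 0.9 or higher.

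Because Adgre1 itself was low in mouse 3, Csf1r was also used as the reference, a choice made after the values were seen. The ratio of C1qb to Csf1r had a difference of 0.00085 between the groups, with values from 0.14 to 0.36 in all 5 libraries, and that of C1qc had one of 0.0082. For C1qa the difference was 0.12, with values from 0.037 to 0.39, both ends being Prdm16fl/fl mice. The ratio of Gpnmb to Csf1r was -4.6 and -4.7 in the Prdm16fl/fl mice and -3.45, -3.47 and -2.76 in the Ksp-Cre/Prdm16fl/fl mice, a difference of 1.42 (exact two-sided permutation p = 0.1). The ratio of Ly6c2 to Csf1r was -4.75 and -4.25 against -5.44, -4.83 and -6.74, also without overlap. For 34.3% of all tested genes the ratio to Csf1r did not overlap between the groups. Relative to Ptprc, the leukocyte antigen CD45, the ratio of Mrc1 was -1.09 and -0.54 against -0.39, -0.43 and -0.14. The groups were apart for Mrc1, Trem2, Gpnmb and Ly6c2, beside 18.6% of all tested genes, and every adjusted permutation p relative to Ptprc was 0.5 or higher. For Ly6c2 they were barely apart, since Prdm16fl/fl mouse 1 and Ksp-Cre/Prdm16fl/fl mouse 2 were both at -4.62 after rounding.

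**Figure D4:**
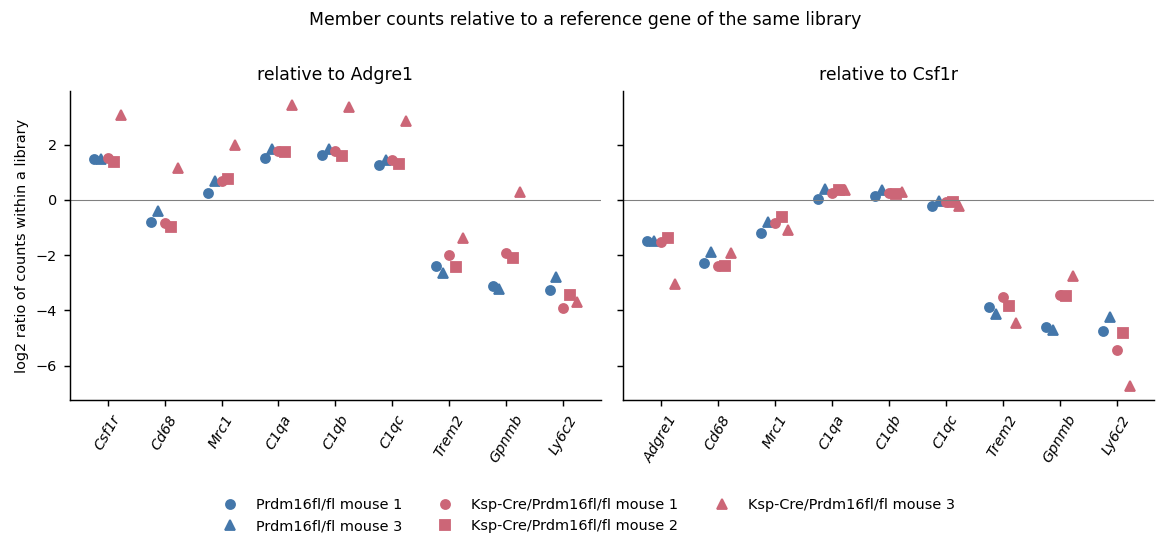
Log2 ratio of each gene's count to that of Adgre1 (left) or Csf1r (right) in the same library, by mouse, with Prdm16fl/fl mice in blue and Ksp-Cre/Prdm16fl/fl mice in red. Relative to Adgre1, Ksp-Cre/Prdm16fl/fl mouse 3 lies above the other libraries for most genes (3.44 for C1qa). Relative to Csf1r the C1q chains of all libraries lie between -0.23 and 0.39, while Gpnmb stands at -3.47 to -2.76 against -4.7 and -4.6.

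The genes around these receptors were read from lists. Of 10 ligands and transcription factors of the Csf1r pathway, 0 were called. Csf1 was at 51.8 and 51.5 CPM in the Prdm16fl/fl mice and at 90.4, 88.9 and 44.0 CPM in the Ksp-Cre/Prdm16fl/fl mice (log2 fold change 0.53, adjusted p = 0.422), with mouse 3 lowest as for Adgre1. Il34, a ligand made by tubular cells, went the other way in mouse 3, at 72.3 and 80.6 CPM against 87.4, 110 and 269 CPM (1.02, adjusted p = 0.327). Without mouse 3 the log2 fold change was 0.8 for Csf1 (adjusted p = 0.00132) and 0.37 for Il34 (adjusted p = 0.0736). The transcription factor Spi1, which encodes PU.1, had a log2 fold change of 0.28 (adjusted p = 0.543). Nr1h3, a nuclear receptor of lipid handling, was at -0.46 (adjusted p = 0.155).

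Of 16 genes of Trem2 signalling and lipid-loaded macrophages, 0 were called higher and 1 lower, beside 0.628% of all tested genes in the lower direction. The called gene was Lpl, the lipoprotein lipase, which fell from 309 and 341 CPM to 123, 119 and 116 CPM (log2 fold change -1.44, SE 0.12, adjusted p = 0.0242). Its groups did not overlap, as for 21.3% of all tested genes in the lower direction, and Lpl is also made by cells other than macrophages. Tyrobp, the adaptor of Trem2, was at 32.8 and 44.2 CPM against 50.7, 42.8 and 31.7 CPM, and its log2 fold change of 0.12 did not pass (adjusted p = 0.818). Its kinase Syk was at 0.2 (adjusted p = 0.422). Apoe, a lipid carrier that Trem2 binds, was at 749 and 974 CPM against 1352, 1170 and 1239 CPM, without overlap, at a log2 fold change of 0.54 (adjusted p = 0.189). The groups were apart in the higher direction for 8 of the 16 genes, beside 20.3% of all tested genes, and the median of the list was 0.17, beside 0.04. These 8 include Spp1, which is also in the list of tubular injury genes, and do not include Tyrobp. The part of cells other than macrophages in this count was not tested.

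Of 28 other macrophage and phagocyte receptors, 23 were tested and 0 were called, with 8 higher and 0 lower at an unadjusted p under 0.05, beside 7.64% of all tested genes in the higher direction. The median log2 fold change was 0.36, beside 0.04 for all tested genes. The smallest p-values belonged to Itgam, the integrin CD11b (log2 fold change 0.95, adjusted p = 0.0726), Stab1, a scavenger receptor (0.61, adjusted p = 0.126), and Msr1, scavenger receptor A (0.9, adjusted p = 0.127). In all 3, which were picked by their p-values, the groups did not overlap. Such a separation in the higher direction was seen for 9 of the 23 tested receptors, beside 20.3% of all tested genes. Ksp-Cre/Prdm16fl/fl mouse 3 was the highest library for all 3, at 56.3 CPM for Itgam against 40.2 and 42.6 CPM in mice 2 and 1. Other receptors of the list followed Adgre1 instead. Cx3cr1, the fractalkine receptor, named here after its values were seen, was at 28.5 and 20.7 CPM in the Prdm16fl/fl mice. It was at 51.3 and 50.4 CPM in mice 1 and 2 of the Ksp-Cre/Prdm16fl/fl group and 4.46 CPM in mouse 3. Without Ksp-Cre/Prdm16fl/fl mouse 3, 12 of the 23 tested receptors were higher and 1 lower at an adjusted p under 0.05 in edgeR. Beside them, 7.82% of all genes tested in that fit were higher.

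For the partners of C1q, 11 of 13 genes were tested and 0 were called. C1ra and C1s1, whose products are the proteases of the C1 complex, had log2 fold changes of 0.17 (adjusted p = 0.543) and 0.22 (adjusted p = 0.657). Serping1, which encodes the C1 inhibitor, was at 0.43 (adjusted p = 0.469). Masp1, a protease of the lectin pathway, had the smallest p of the list (1.05, adjusted p = 0.0574), followed by the C1q-binding receptors Lrp1 (0.73, adjusted p = 0.0732) and Cd93 (0.6, adjusted p = 0.1), which many cells other than macrophages make.

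Monocyte genes beside Ly6c2 were tested in a list of 12, of which 0 were called. Ccr2, the chemokine receptor by which Ly6C-high monocytes enter tissue, was at 77.7 and 87.0 CPM in the Prdm16fl/fl mice and at 135, 127 and 24.8 CPM in the Ksp-Cre/Prdm16fl/fl mice (log2 fold change 0.22, adjusted p = 0.885). Mouse 3 was thus the lowest library for Ccr2 as it was for Ly6c2, and mice 1 and 2 were the highest for Ccr2 but not for Ly6c2. Without mouse 3 the log2 fold change of Ccr2 was 0.67 (adjusted p = 0.00379). Over all 5 mice the smallest p of the list was that of F13a1, a coagulation factor subunit of monocytes, at 2.38 (adjusted p = 0.0865). F13a1 had few counts, 11 and 10 in the Prdm16fl/fl mice and 40, 58 and 88 in the Ksp-Cre/Prdm16fl/fl mice. Mouse 3 was its highest library, unlike for Ccr2 and Ly6c2. Of 15 tested products of inflammatory or repair macrophages 0 were called, with a median of 0.38. Their smallest p-values were those of Mmp14, a matrix protease (0.63, adjusted p = 0.0726), and the growth factor Tgfb1 (0.55, adjusted p = 0.121), which many kidney cells make. Without Ksp-Cre/Prdm16fl/fl mouse 3, 8 of the 15 were higher and 0 lower at an adjusted p under 0.05 in edgeR. Beside them, 7.82% of all genes tested in that fit were higher.

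**Figure D5:**
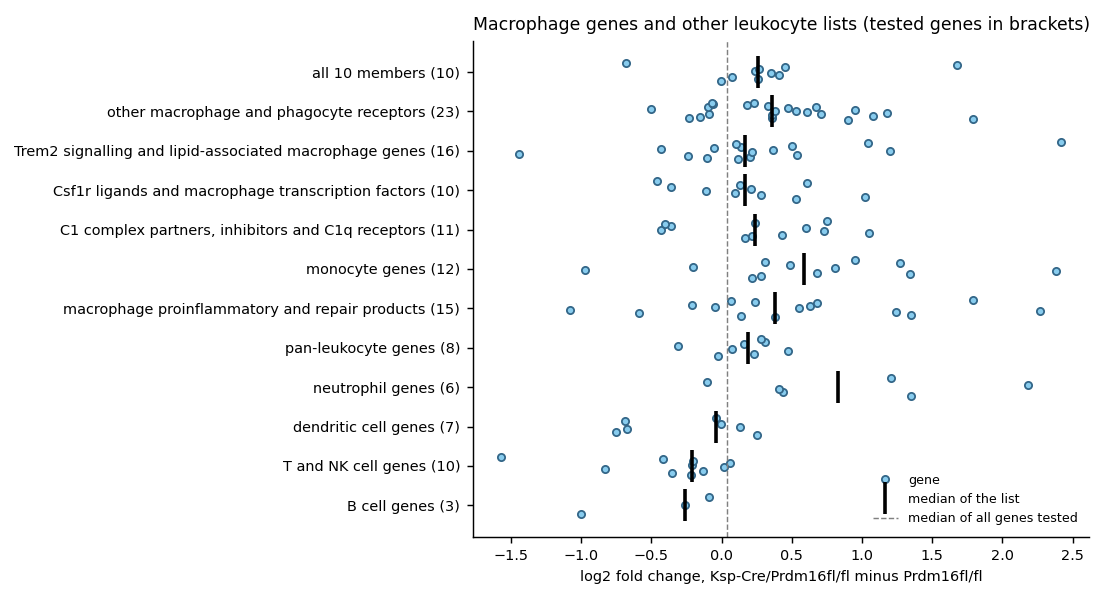
Log2 fold change (x axis) of each tested gene by list, with the list's median as a black bar, the median of all genes tested as a dashed line, and the vertical offset within a list used only to separate points. The median is 0.26 for the 10 genes, 0.36 for other macrophage receptors and 0.59 for monocyte genes. It is 0.83 for neutrophil genes, 0.19 for pan-leukocyte genes and -0.21 for T and NK cell genes.

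The genes whose pattern over the 5 libraries was most like that of Adgre1 and C1qa were found among 11370 tested genes whose mean log2 CPM was 3 or more, by the root mean square difference of log2 CPM centred on each gene's mean. For Adgre1 they were Ifi203 (0.0347), Mmp12 (0.0845) and Pknox2 (0.0988). Ifi203, an interferon-inducible gene, was at 36.5 and 41.8 CPM in the Prdm16fl/fl mice and at 54.7, 54.0 and 13.2 CPM in the Ksp-Cre/Prdm16fl/fl mice, so its library order was that of Adgre1. Mmp12, the macrophage elastase, was at 22.5 and 28.8 CPM against 35.1, 31.1 and 8.26 CPM. For C1qa they were Otulinl (0.0411), Mir100hg (0.0542) and Cnpy4 (0.0736). The same search for Gpnmb, added after its value was seen, gave Ccr1 (0.159) and Adamts1 (0.197) among the nearest genes. Ccr1, a chemokine receptor of myeloid cells, was at 4.31 and 6.31 CPM against 16.8, 15.3 and 19.3 CPM, again with mouse 3 highest.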

How the data were processed

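Kidney RNA of 2 Prdm16fl/fl and 3 Ksp-Cre/Prdm16fl/fl UIRI mice was analysed, grouped by the genotype in the labels. For each mouse the authors deposited a count per gene, not normalized, and TPM and FPKM values, which scale it by exon length and library total. Recomputing both from the counts gave differences of rounding only. TPM was not used further. The submitters' processing notes name CASAVA, featureCounts 2.0.1, DESeq2 1.16.1 and hg38, a human build, whereas the gene names are of mouse. The aligner and the use of strand are not given in the sources used here. No exon of the 10 genes overlaps another listed gene. Lines of 5 genes broken in the files were rejoined.

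Genes were filtered with filterByExpr, scaled with TMM and tested with the quasi-likelihood test of edgeR 4.0.16 (R 4.3.3), Ksp-Cre/Prdm16fl/fl minus Prdm16fl/fl, without covariates. Standard errors are the log2 fold change over the root of F. CPM are per 1000000 TMM-scaled counts. Ratios used log2(count + 0.5). Total counts are given with the results, and precision is set by the number of mice. The edgeR p-values compare a difference with the variation between mice, which is estimated in part from all genes together. Alternatives were DESeq2 1.42.0, other scalings and filters, limma 3.58.1 on log2(FPKM + 1) and log2(FPKM + 0.1), the mouse number as a block, a trend on gene length, and each mouse left out. A trend on gene length and GC content, Csf1r as a reference and 2 lists (melanocyte and osteoclast genes) were added after the values were seen. The genes and lists were chosen with earlier results of these data known. Beside the 10 genes and their partners, a list's called genes or, if none, up to 3 with the smallest p and a mean log2 CPM of at least 0 are named. Some genes that meet this rule are left out, and 1 gene like Gpnmb in pattern is not reported here. The edgeR test was first run on simulated counts.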

Additional observations from a re-analysis of the deposited data

How the results depend on the processing

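The log2 fold changes of Csf1r, Mrc1, the C1q chains, Trem2, Gpnmb and Ly6c2 kept their direction in all 15 alternatives, and those of Adgre1 and Cd68 did not. Adgre1 was at 0.14 with library size scaling, 0.021 with upper quartile scaling and from -0.28 to 0.42 with each mouse left out (0.074 without Prdm16fl/fl mouse 3 and 0.42 without Ksp-Cre/Prdm16fl/fl mouse 3). Cd68 ranged from -0.17, without Prdm16fl/fl mouse 1, to 0.36 with each mouse left out. The difference in its log2 ratio to Adgre1, 0.37, was -0.15 with Csf1r as reference and -0.33 without Ksp-Cre/Prdm16fl/fl mouse 3. The adjusted p of Gpnmb ranged from 9.7e-08 (DESeq2) to 0.496 over the alternatives. The count of called genes, 116 (13 higher, 103 lower), was 493 (112 higher, 381 lower) with DESeq2, 46 (12 higher, 34 lower) with library size scaling, 287 without a filter, 47 and 13 with limma on log2(FPKM + 1) and log2(FPKM + 0.1), 68 without the gene length trend and 45 without the trends on length and GC content. With each mouse left out it ranged from 0 to 733. With edgeR it was 0 without each mouse but Ksp-Cre/Prdm16fl/fl mouse 3, with 1330 to 2514 genes at an unadjusted p under 0.05. Among the 10 genes the count was 1, and it was 0 after the trends on length and GC content were removed, with 3 at an unadjusted p under 0.05, and 0 to 1 with each mouse left out. Where 1 Prdm16fl/fl mouse was left, it was assumed to vary like the other group. The count of ratios to Adgre1 that did not overlap, 2, beside 8.63% of all tested genes, was 4 against Ptprc, beside 18.6%. With each mouse left out it was 3 to 5. Leaving out a library can only remove overlaps, and the share of all tested genes was not computed there, so no more is read from this rise.

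With the mouse number as a replicate block, 0 genes and 0 of the 10 passed in edgeR (2061 and 1 at an unadjusted p under 0.05). Numbers 1 and 3 are shared, nothing in the labels says that they mark a litter or day, and deviations from the group mean had correlations of 0.00102 and -0.022 between mice of the same number, so they were taken as names only. In that fit Ly6c2 was at -1.3.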

Other observations

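Other leukocyte genes separated the libraries in more than 1 way. All 10 tested T and NK cell genes and 6 of 7 dendritic cell genes were lowest in Ksp-Cre/Prdm16fl/fl mouse 3, beside 32.0% of all tested genes. The dendritic cell list summed to 27.5 CPM in that mouse and to 56.0 to 65.8 CPM in the others, and the T and NK cell list to 45.3 CPM and 74.1 to 93.2 CPM. Of these 2 lists 0 genes were called between the genotypes by edgeR, and 0 had an unadjusted p under 0.05. Lyz2, the lysozyme of myeloid cells, was at 229 CPM in the same mouse and at 464 to 772 CPM in the others, whereas Cd14, the lipopolysaccharide co-receptor, was highest there, at 176 CPM against 43.7 to 106 CPM. Both were named after their values were seen. Of 6 tested neutrophil genes 0 were called, and the groups were apart in the higher direction for 2, beside 20.3% of all tested genes. Cxcr2, a neutrophil chemokine receptor, had the smallest p of these but few counts, 9 and 6 in the Prdm16fl/fl mice. It was at 0.607 and 0.431 CPM there and at 2.67, 2.3 and 2.2 CPM in the Ksp-Cre/Prdm16fl/fl mice. This difference was at the edge of the test (log2 fold change 2.18, SE 0.36, adjusted p = 0.0543 in edgeR).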
